A study of Drosophila melanogaster with 16 samples.

Results

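The peaks described here are the stretches of fat body chromatin at gene ends that were more accessible in flies kept at 11 °C than in flies kept at 25 °C. There were 245 of them among 8069 peaks of the authors' deposited table on the dm6 build. They were chosen on the authors' mean normalised reads: a log2 mean over all libraries used of at least 5, which is 32 reads, and a log2 difference of at least 0.4 (11 °C minus 25 °C), which is a ratio of 1.32. The peak midpoint also had to lie within 500 bp of an end of a gene in the RefSeq annotation, and peaks within 500 bp of a tRNA gene were left out. That step left 4963 of 5077 gene-end peaks and took away 1 peak that would otherwise have been a member. Of 4928 gene-end peaks with enough reads, the 245 were 4.97%, and 285 (5.78%) passed the mirrored cutoff with more reads at 25 °C. The temperature difference chose these peaks, so it is given below as a description, without a test.

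The libraries were ATAC-seq, in which a transposase cuts open chromatin so that reads in a peak measure how accessible it is. They came from dissected fat body of w1118 virgin females of Drosophila melanogaster, put into their condition within 8 hours of eclosion and kept there for 25 days. The labels give 4 groups of 4 libraries, with 25 flies to a library: 11 °C with S-methoprene, 11 °C with ethanol, 25 °C with S-methoprene and 25 °C with ethanol. S-methoprene, an analog of juvenile hormone, was given as vapour at 39.4 mM in 99% ethanol, 10 µL every 2 days, and ethanol alone was the vehicle. Cold of this degree puts adult females of the species into diapause, a state in which egg production stops. Flies were picked by their ovaries, regressed at 11 °C with ethanol and large in the other groups, so temperature and ovary state cannot be told apart in full. The table gives a mean for each temperature without stating which hormone groups entered it. It gives no value per library, so the depth and the spread between replicates are unknown here. The overall mean weighs 25 °C against 11 °C as 3 to 4, so at least some of the 8 libraries labelled 25 °C did not enter it. If the share of S-methoprene libraries differed between the temperatures, hormone and temperature cannot be told apart in these means.

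Gene ends hold most promoters and the sites where transcription stops. A promoter in use is usually kept free of nucleosomes, and many genes that are silent in a tissue keep an open or partly open promoter as well, so accessibility is not a measure of expression. The fat body stores fat and glycogen, makes yolk and immune proteins, and answers hormones and cold. The annotation used gives the limits of a gene without strand or exons, so a start of transcription was not told from a stop, and sequence was not analysed here. With tissue in bulk, fewer cells with the site open and a less open site in each cell cannot be told apart.

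The label of the tissue was set against 8 lists of marker genes. Of 17 fat body markers 14 had a peak, and those without were Fbp1, Fbp2 and Lsp1alpha. Of the oenocyte markers 8 of 9 had a peak, while 2 of 12 for muscle, 4 of 11 for hemocytes, 5 of 10 for neurons, 4 of 10 for ovary, 2 of 8 for gut and 3 of 8 for trachea did. The authors' mean reads summed over a list were 6375 at 11 °C and 8020 at 25 °C for fat body, and 2620 at 11 °C and 2851 at 25 °C for oenocytes. They were 2207 at 11 °C and 2056 at 25 °C for hemocytes, 1087 at 11 °C and 1008 at 25 °C for neurons, 1002 at 11 °C and 1004 at 25 °C for muscle, and 924 at 11 °C and 1076 at 25 °C for ovary. They were 341 at 11 °C and 324 at 25 °C for gut and 1008 at 11 °C and 1076 at 25 °C for trachea. The median log2 difference (11 °C minus 25 °C) over the same peaks was -0.11 for fat body, -0.26 for oenocytes, -0.07 for hemocytes and -0.04 for neurons. It was -0.11 for muscle, -0.14 for ovary, 0.07 for gut and -0.24 for trachea. For hemocytes and neurons the sum was thus higher at 11 °C while the median was below 0. Hml, NimC1 and eater of the hemocyte list and bt, sls and wupA of the muscle list had no peak. Past the cutoff at gene ends, the fat body list had 2 members, Ilp6 and Lsp1beta, and 5 mirrored peaks, at Yp1, Yp2, Yp3, apolpp and tobi. Of these, Yp2 and tobi had an FDR of 0.0794 and 0.192 in the authors' deposited table and so were not called. The Lsp1beta peak had its midpoint 374 bp outside that gene and was shared with snRNA:U1:21D and scaRNA:MeU1:95C-A24. Which of these genes it belongs to was not tested. The oenocyte list had 1 member, at spidey, and 2 mirrored peaks, at Cyp4g1 and eloF, and the gut list had 1 member, at nub, and 1 mirrored peak, at Amy-p. The hemocyte list had 0 members and 2 mirrored peaks, the ovary list 0 members and 1 mirrored peak, and the muscle, neuron and trachea lists neither. The mirrored peak of the ovary list, at tj, was not called (FDR 0.311 in the authors' deposited table). The widest of these differences was at apolpp, the gene of the main fly lipoprotein, with 38.3 reads at 11 °C and 156 at 25 °C in the authors' deposited table. The part of other cell types in the differences below was not tested.

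The 245 peaks held a median of 163 normalised reads at 11 °C and 109 at 25 °C in the authors' deposited table. Their log2 difference had a median of 0.57 (a ratio of 1.48), quartiles of 0.47 and 0.76, and a maximum of 2.06. Most differences were therefore modest, and 20 of the 245 reached a doubling. By the FDR in the authors' deposited table, 230 of the 245 were called at an FDR under 0.05, against 10.0% of all peaks called in that direction; the cutoff used the same contrast, so this count adds nothing to it. The fitted log2 fold in the authors' deposited table runs the other way, 25 °C over 11 °C, and its size was 0.38 to 0.97 of the plain difference, with a median of 0.84.

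**Figure D1:**
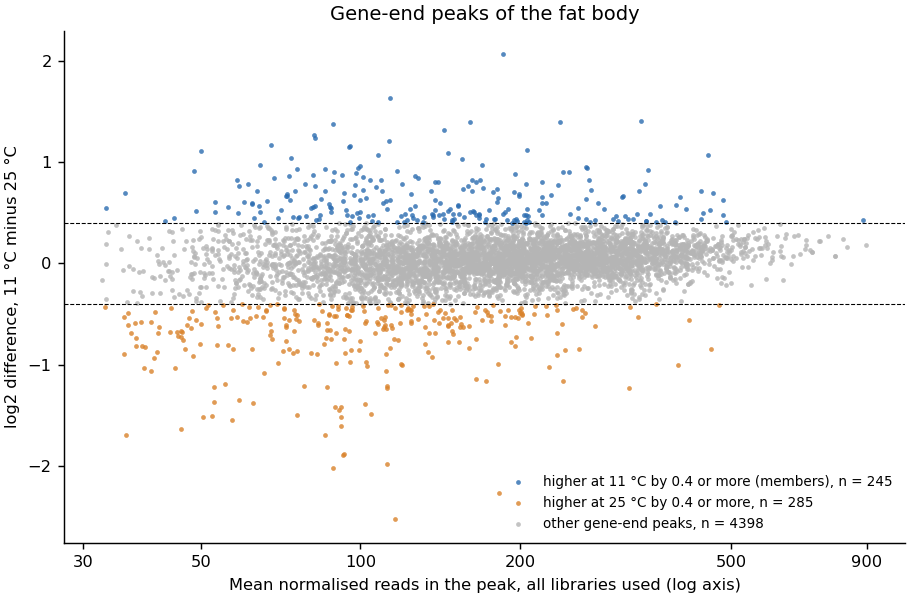
Each point is a gene-end peak, with its mean normalised reads over the libraries used (log axis) against its log2 difference of mean reads, 11 °C minus 25 °C. Dashed lines mark the cutoff of 0.4 in both directions; the 245 members lie above the upper line and the 285 mirrored peaks below the lower one.

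The peak with the widest difference overlapped an end of Msr-110 on 3L at 5577301 to 5577701, with its midpoint 153 bp outside the gene. It held 275 reads at 11 °C and 65.8 at 25 °C, a log2 difference of 2.06 with an FDR of 3.55e-46 in the authors' deposited table. Next was a peak over an end of nvy, its midpoint 55 bp inside the gene, with 160 reads at 11 °C and 51.7 at 25 °C. The gene is the fly relative of the human MTG corepressor genes. The peak's log2 difference of 1.63 had an FDR of 6.51e-06 in the authors' deposited table. A peak at tsh, whose zinc finger protein patterns the trunk, had a smaller log2 difference of 1.40 and a much lower FDR of 2.98e-22 in the same authors' deposited table. It held 460 reads at 11 °C and 174 at 25 °C. Ranks by difference and by FDR thus departed from each other.

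Behind these came genes of several kinds. Fas3, which encodes a cell adhesion protein of epithelia and nerves, had 219 reads at 11 °C and 83.0 at 25 °C in the authors' deposited table. A peak beside the noncoding gene lncRNA:CR44339, its midpoint 352 bp from the gene, had 323 at 11 °C and 123 at 25 °C. Ssl2, a strictosidine synthase-like gene that shares its peak with beta4GalNAcTB, had 121 at 11 °C and 46.6 at 25 °C. Mpv17 on chromosome 4, named for a mitochondrial membrane protein, had 193 at 11 °C and 77.7 at 25 °C. The sodium pump subunit gene nrv3 had 125 at 11 °C and 56.1 at 25 °C, and ine, which encodes a relative of neurotransmitter transporters and shares its peak with dpy, had 149 at 11 °C and 64.7 at 25 °C. All of them differed by over 2-fold in these means.

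The rest of the 20 widest differences had ratios of 2.04 to 2.41. They include slow, whose product acts at tendons, with 109 reads at 11 °C and 46.4 at 25 °C in the authors' deposited table. They include mIF2, a mitochondrial translation initiation factor gene, with 94.8 at 11 °C and 46.1 at 25 °C, and the less studied CG13116, CG10073, CG14435, CG10348 and CG5510. The last of these, CG5510, had a ratio of 2.04 with an FDR of 0.0011 in the authors' deposited table, the highest FDR of the 20. The transcription factor genes pdm3 and Dll stood there too, and ebd2, which encodes a cofactor of Wingless signalling. Its paralog ebd1 was also among the 245 peaks, with 269 reads at 11 °C and 155 at 25 °C in a peak shared with hiro.

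**Figure D2:**
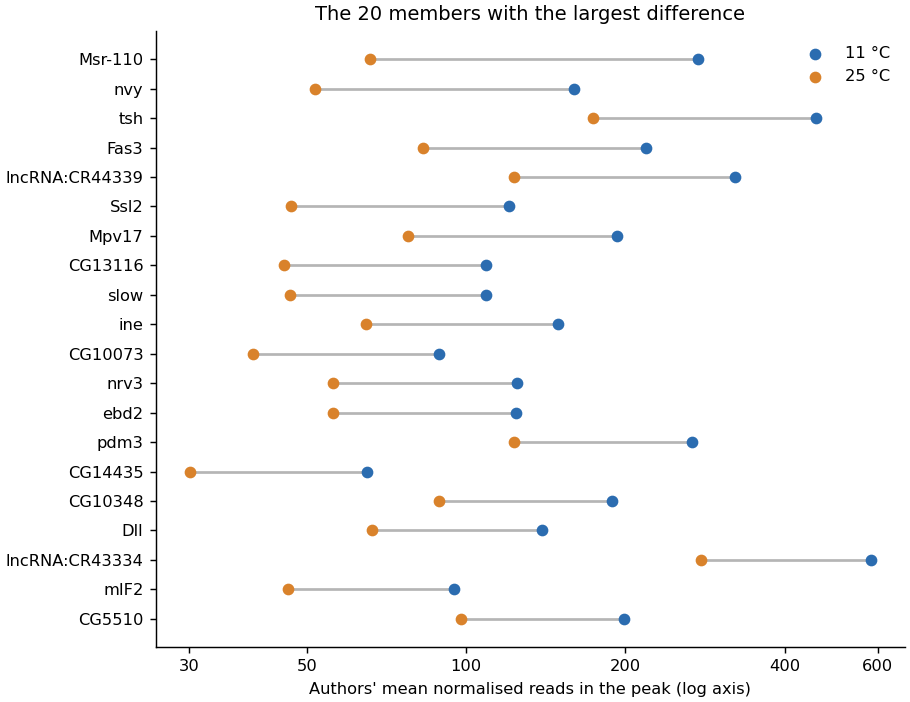
The 20 members with the largest log2 difference, one per row and named by gene, with the authors' mean normalised reads at 11 °C and at 25 °C on a log axis. Msr-110, at the top, has 275 reads at 11 °C and 65.8 at 25 °C; tsh and lncRNA:CR43334 have the most reads at 11 °C, 460 and 582.

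The 5 strongest peaks among the 245 were not among the 20 with the widest differences. The highest mean was at lncRNA:CR46036, with 993 reads at 11 °C and 738 at 25 °C and an FDR of 0.000128 in the authors' deposited table. A peak near mino, a glycerol-3-phosphate acyltransferase gene, and the ribosomal protein gene RpL4 had 547 at 11 °C and 411 at 25 °C. CrebB, which encodes the fly's CREB factor of cAMP signalling, had 569 at 11 °C and 369 at 25 °C. GstT4, a glutathione transferase gene, had 549 at 11 °C and 393 at 25 °C, and the peak of Irc, an immune catalase gene, and Sf3a1 had 553 at 11 °C and 341 at 25 °C. Their ratios lay between 1.33 and 1.62, around the members' median of 1.48.

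The members nearest the cutoff had log2 differences of 0.4015 for Rift, 0.4021 for Rim2 and 0.4042 for CG9664. Just outside it were CG30059 with 0.3993, Snrk with 0.3985 and peo with 0.3975. The FDR in the authors' deposited table was 0.00316, 0.00438 and 0.00187 for the 3 inside and 0.0650, 0.0129 and 0.0253 for the 3 outside.

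Of the 245 peaks, 15 were not called. By median they were weaker, with 74.6 mean reads against 144 in the called ones, and their median log2 difference was 0.50 against 0.59. Among them, tx, a basic helix-loop-helix factor gene, had 116 reads at 11 °C and 72.6 at 25 °C with an FDR of 0.0573 in the authors' deposited table. The homeodomain gene Awh had 93.4 at 11 °C and 64.0 at 25 °C (FDR 0.131), and the kinase gene CaMKI had 74.0 at 11 °C and 52.2 at 25 °C (FDR 0.227), both in the authors' deposited table. Others were mew, Orc2, Klp98A, Usp32, rost, Vago, CG11842, CG1662, CG9500, CG7781, CG7381 and the weaker of both peaks at CG32695. Of the 15, CG1662, CG7781, rost and CG11842 held 206, 196, 175 and 153 mean reads, above the median of the called ones.

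Genes were grouped in 17 pathway lists and 3 further lists. Of 4928 gene-end peaks 7.41% were called higher at 11 °C and 7.28% higher at 25 °C. Their median log2 difference was 0.03, so gene-end peaks as a whole were nearly centred. Of all 7846 peaks with enough reads, wherever they lay, 591 passed the cutoff toward 11 °C and 831 the mirrored one. Of the 245 peaks, 32 lay at a gene of a pathway list, 41 at a gene of a further list, 65 at a gene of either kind and 180 at none. The further lists were drawn up after the members had been seen, so the 41 and the 65 are raised by that choice. Counts in a list are descriptions, without a test.

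Members of signalling lists were few and of several pathways. Insulin and TOR signalling had 3 members among 30 gene-end peaks (10%), with 4 of the 30 called higher at 11 °C and 1 at 25 °C, and a median log2 difference of 0.13. They were Ilp6, which encodes a fat body insulin-like peptide, SNF4Agamma, the gamma subunit gene of the energy sensor kinase AMPK, and a peak shared by mTor, the growth kinase gene, and Vha68-1. Ilp6 had 218 reads at 11 °C and 132 at 25 °C in the authors' deposited table. SNF4Agamma had 102 at 11 °C and 68.0 at 25 °C, and the mTor peak 221 at 11 °C and 165 at 25 °C. These 3 peaks were all called in the authors' deposited table (FDR 0.000151, 0.000744 and 0.00215).

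Among developmental signalling genes 3 of 49 gene-end peaks were members (6.12%), and 4 were called higher at 11 °C and 6 higher at 25 °C. The receptor gene N, Notch, had 243 reads at 11 °C and 132 at 25 °C in a peak shared with kirre (FDR 7.09e-12 in the authors' deposited table). The ligand gene dpp, of the BMP family, had 425 at 11 °C and 287 at 25 °C, and the Wnt receptor gene fz had 95.3 at 11 °C and 64.6 at 25 °C. The ligand, the receptor and Notch thus belonged to separate pathways, with a median of 0.04 over the list. The circadian clock list had per, the period gene, as its member out of 12 peaks, with 457 reads at 11 °C and 307 at 25 °C (FDR 2.93e-06 in the authors' deposited table). No other peak of that list was called in either direction.

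Extracellular matrix and adhesion genes gave 6 members of 81 gene-end peaks (7.41%), and 7 of the 81 were called in each direction. Besides Fas3 they were the laminin gene LanB2, the collagen IV gene Col4a1, the perlecan gene trol in a peak shared with boi, the cadherin gene shg and the integrin gene mew. LanB2 had 111 reads at 11 °C and 59.6 at 25 °C in the authors' deposited table. Col4a1 had 524 at 11 °C and 364 at 25 °C, the trol and boi peak 109 at 11 °C and 71.1 at 25 °C, and shg 144 at 11 °C and 107 at 25 °C. The integrin gene mew, at 38.4 reads at 11 °C and 26.3 at 25 °C, was the weakest of all members at either temperature and was not called.

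Among sugar metabolism, detoxification and immunity genes 6.45%, 3.17% and 5% of gene-end peaks were members, against 4.97% of all gene-end peaks. Sugar metabolism had 2 of 31 peaks, PyK, pyruvate kinase, with 438 reads at 11 °C and 329 at 25 °C, and Eno, enolase, in the peak with Rim2 (229 at 11 °C and 173 at 25 °C in the authors' deposited table). Detoxification had 2 of 63, GstT4 and GstE12, both glutathione transferase genes, and GstE12 had 308 reads at 11 °C and 165 at 25 °C in a peak shared with CG3894. The cytochrome P450 gene Cyp4e3 (108 at 11 °C and 56.4 at 25 °C) was also a member but is not on that list. The same holds for the UGT gene Ugt37D1 (257 at 11 °C and 170 at 25 °C). Innate immunity had 2 of 40 peaks. They lay at GNBP1 with GNBP2, pattern recognition genes, and at grass, a Toll cascade protease gene that shares its peak with Men-b. The first held 219 reads at 11 °C and 163 at 25 °C, and the second 343 at 11 °C and 256 at 25 °C. Members not on the immunity list included the peptidoglycan recognition gene PGRP-LA (95.9 at 11 °C and 55.8 at 25 °C) and Irc, named above. In the same 3 lists 3, 12 and 10 peaks were called higher at 25 °C, and 3, 3 and 6 higher at 11 °C, in the authors' deposited table. No member lay at a listed lipid gene (44 peaks) or a listed heat shock and stress gene (32). The lists of autophagy and lysosome genes (73) and of nuclear receptor and juvenile hormone genes (21) had none either. At the FDR in the authors' deposited table these lists without a member had 1, 0, 1 and 0 peaks called higher at 11 °C. Called higher at 25 °C in them were 6, 7, 1 and 2 peaks. The lists are not complete, and mino, the acyltransferase gene named above, was a member but is not on the lipid list.

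Translation and ribosome genes had 2 members of 116 peaks, eEF5 and RpL4, and the respiratory chain 1 of 58, at ATPsynD with CG6040. The eEF5 peak, at a translation factor gene and shared with CG13563, held 297 reads at 11 °C and 204 at 25 °C in the authors' deposited table. RNA processing had 3 of 79, Sf3a1, Dcr-2 of small RNA silencing, in a peak shared with Rab4, and the splicing gene snRNP-U1-70K. Chromatin regulators had 2 of 76, mle of dosage compensation, in the peak of BubR1, and the remodeller gene Mi-2, in the uncalled peak of Usp32. Neural receptor and channel genes had 2 of 19, the neuropeptide receptor gene sNPF-R (199 reads at 11 °C and 113 at 25 °C) and the channel gene pain. The pain peak, shared with CG30427, held 159 at 11 °C and 110 at 25 °C. In that list 4 peaks were called higher at 25 °C in the authors' deposited table.

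The cell cycle list had 4 members of 60 peaks (6.67%), and 5 were called higher at 11 °C and 2 at 25 °C. BubR1, a spindle checkpoint kinase gene, had 119 reads at 11 °C and 69.5 at 25 °C. The mitotic cyclin gene CycB3, in a peak shared with CG3744, had 129 at 11 °C and 76.7 at 25 °C. CycA had 131 at 11 °C and 98.6 at 25 °C, with all these reads in the authors' deposited table. The replication origin gene Orc2 had 84.5 at 11 °C and 61.4 at 25 °C and was not called. The midpoints of these 4 peaks lay within 112 bp of an end of the gene.

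**Figure D3:**
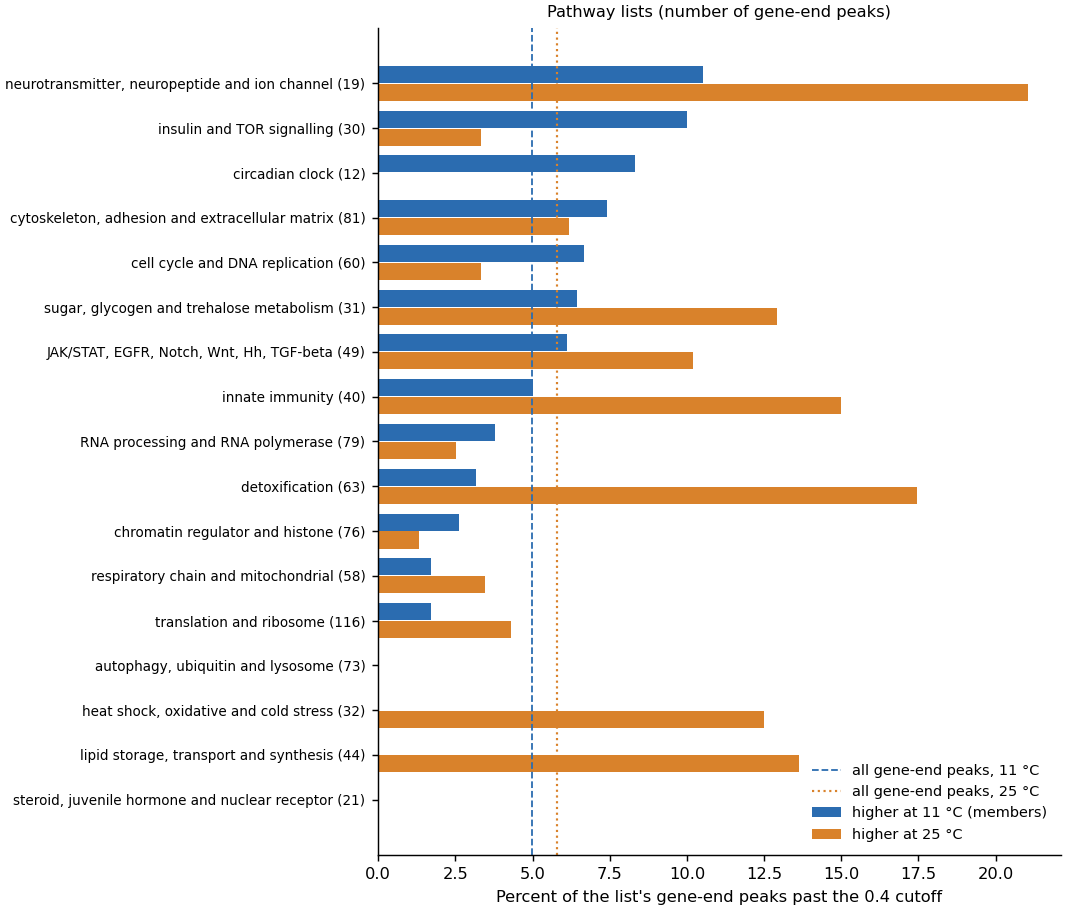
Percent of each list's gene-end peaks with a log2 difference of at least 0.4 in favour of 11 °C and of 25 °C, with the number of peaks in brackets; vertical lines are the shares over all gene-end peaks (4.97% and 5.78%). The 17 pathway lists are shown, and the 4 with no bar for 11 °C had no member.

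The 3 further lists were drawn up after the members had been seen and hold genes chosen because they were members, so their shares are raised by that choice and cannot be set against the background. Patterning and selector transcription factor genes had 16 members of 49 gene-end peaks, with 2 past the mirrored cutoff. Besides tsh and nvy they included the homeodomain genes Dll, Awh, caup and mirr, the POU genes pdm3 and nub, the GATA factor genes pnr and grn, and btd, bowl, Doc3, ss and tx. Reads were 139 at 11 °C and 66.3 at 25 °C for Dll, which specifies limbs, and 157 at 11 °C and 86.0 at 25 °C for pnr in the authors' deposited table. For caup and mirr, neighbouring genes of the Iroquois complex, they were 149 at 11 °C and 92.8 at 25 °C, and 369 at 11 °C and 235 at 25 °C. Of the 16, tx and Awh were not called.

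Axon guidance and adhesion genes had 13 members of 53 gene-end peaks, with 4 past the mirrored cutoff. The guidance receptor gene robo2 had 336 reads at 11 °C and 175 at 25 °C in the authors' deposited table. Both comm2 (195 at 11 °C and 119 at 25 °C) and comm (161 at 11 °C and 119 at 25 °C), which act on Robo receptors, were members. The list of mitosis, spindle and centrosome genes had 12 members of 67 peaks and none past the mirrored cutoff. Its members were nod, BubR1, CycB3, Cen, dgt2, cnn, vih, mud, RanGAP, borr, pim and CycA, with log2 differences of 0.41 to 0.84. The list is not complete. The kinetochore gene Spc25 (-0.69) and the centrosome gene nuf (-0.59) are not on it and named mirrored peaks. The kinesin-like gene nod had 84.8 reads at 11 °C and 47.2 at 25 °C. The centrosome gene cnn, in a peak shared with Golgin97, had 184 at 11 °C and 130 at 25 °C.

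Of the 245 peaks, 21 had no protein-coding gene end within 500 bp. They lay at 16 long noncoding RNA genes, 3 antisense RNA genes and 2 microRNA genes, mir-1016 and mir-9377. The peak at lncRNA:CR43334 on 3L (628136 to 628536) held 582 reads at 11 °C and 278 at 25 °C, with an FDR of 2.58e-12 in the authors' deposited table. In the annotation this gene runs over the microRNA gene mir-ban, bantam, which promotes growth and blocks cell death. Its 2 other peaks, both inside the gene, were past the cutoff as well: 108 reads at 11 °C and 51.5 at 25 °C, and 88.6 at 11 °C and 57.3 at 25 °C. The peak of mir-9377 held 526 at 11 °C and 321 at 25 °C.

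Neighbouring members on an arm lay a median of 369254 bp apart, 14 gaps were at most 30000 bp, and 2 were under 5000 bp, between both peaks of CG32695 and between CG11841 and CG11842. The X held 21.6% of members, against 13.7% of mirrored peaks and 17% of the other gene-end peaks. On 3R lay 20.4% of members, 28.4% of mirrored peaks and 23.5% of the others, and on 2R 16.7% of members, 18.2% of mirrored peaks and 21.4% of the others. When gene-end peaks were split into quartiles by mean reads, members made up 7.87% of the weakest quartile and 3.57% of the strongest. Mirrored peaks made up 13.9% of the weakest and 0.893% of the strongest. Of the 1232 gene-end peaks in the strongest quartile, 44 were members and 11 were mirrored peaks.

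**Figure D4:**
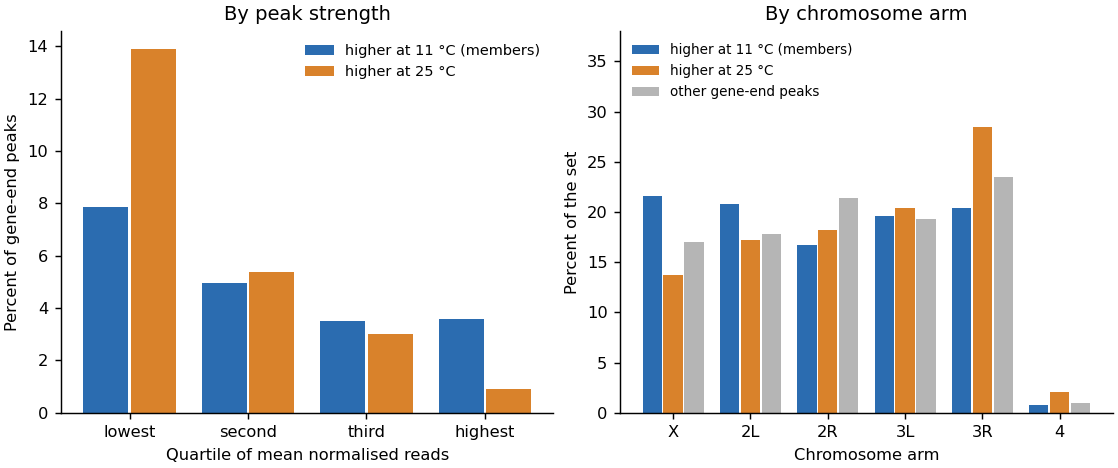
Left, percent of gene-end peaks in each quartile of mean normalised reads that were higher by at least 0.4 (log2) at 11 °C or at 25 °C. Right, percent of each set on each chromosome arm; members have a share of 21.6% on the X, mirrored peaks 13.7% and the other gene-end peaks 17%.

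The midpoint of a member lay a median of 112 bp from the gene end that names it, against 106 bp for mirrored peaks and 77 bp for the other gene-end peaks. Gene ends of more than 1 gene shared the peak for 39.2% of members, 35.4% of mirrored peaks and 58.8% of the others. The naming gene had a median length of 4184 bp for members, 2282 bp for mirrored peaks and 2897 bp for the others, and genes of at least 20000 bp named 13.5% of members, 6.67% of mirrored peaks and 7.55% of the others. These shares were not tested. In gene bodies 290 peaks (11.7% of 2485) passed the same cutoff, with a median log2 difference of 0.61 against 0.57 for members.

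The members were named by 244 genes, and 68 of these had at least 1 further peak with enough reads, 100 peaks in all. Their median log2 difference was 0.06, and 60 of the 100 were above 0. A further gene-end peak past the cutoff would itself be a member, and of the 100 peaks 11 were past it in gene bodies and 11 were past the mirrored cutoff, 7 of these at SNF4Agamma. Of the 1283 further peaks of the genes named by the other gene-end peaks, 13.3% were past the cutoff, 22.8% past the mirrored one and 46.3% above 0. Those 1283 can include members and mirrored peaks, so the shares are not like for like. Genes named by mirrored peaks had 171 further peaks, which can include members. Of these, 5.85% were past the cutoff, 21.1% past the mirrored one and 39.8% above 0. At mirr an inner peak had a wider difference than the member, with 147 reads at 11 °C and 67.4 at 25 °C. At LanB2 an inner peak had 124 at 11 °C and 57.8 at 25 °C, while the peak at the opposite end of the gene had 77.2 at 11 °C and 85.5 at 25 °C. CG9328 had 2 inner peaks past the cutoff.

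Other genes held differences in both directions. SNF4Agamma, 73531 bp long on 3R, had 12 peaks, and the member was the only one with more reads at 11 °C. The other 11 had log2 differences of -1.78 to -0.08 (median -0.52), and 7 of them were called higher at 25 °C in the authors' deposited table. The lowest held 17 reads at 11 °C and 58.4 at 25 °C, and another 166 at 11 °C and 375 at 25 °C. One of the 7 also lies at an end of cDIP, a gene within SNF4Agamma. At fog, which encodes a secreted signal of gastrulation, the member had 214 reads at 11 °C and 151 at 25 °C. Among its inner peaks, 2 had 23.5 at 11 °C and 69.2 at 25 °C, and 29.2 at 11 °C and 73.0 at 25 °C. The 2 other inner peaks of fog had more reads at 11 °C and were not called. They held 61.8 at 11 °C and 45.7 at 25 °C, and 78.4 at 11 °C and 63.2 at 25 °C. At sno an inner peak had 22.2 at 11 °C and 52.3 at 25 °C, against 73.1 at 11 °C and 48.5 at 25 °C for the member. Exn had 1 inner peak called higher at 25 °C in the authors' deposited table.

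**Figure D5:**
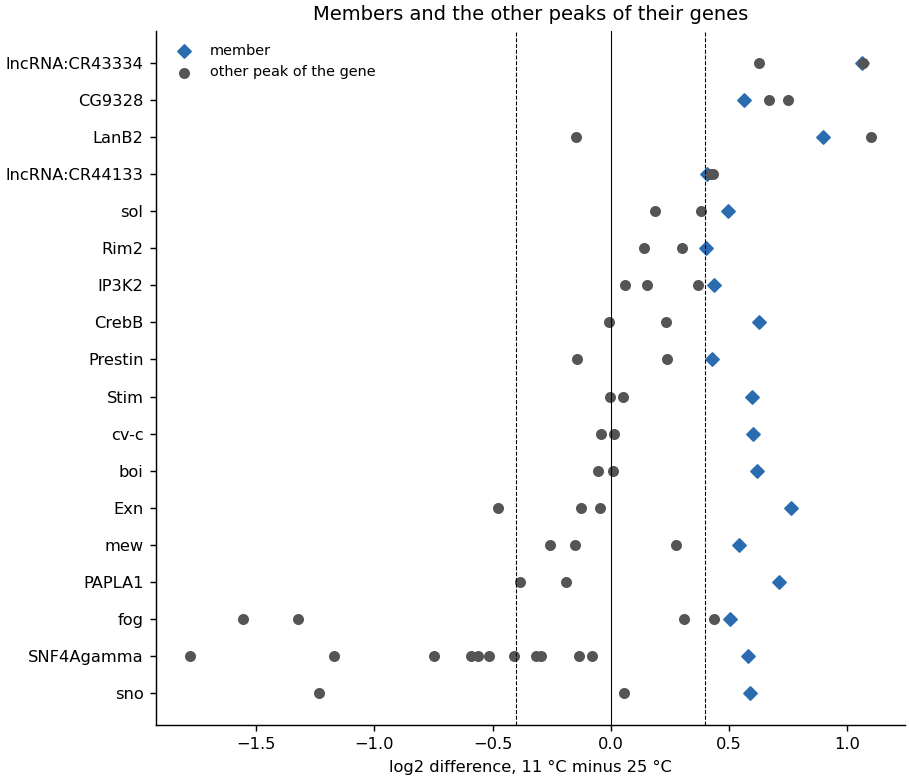
Log2 difference of mean reads, 11 °C minus 25 °C, for members (diamonds) and the other peaks (circles) of the genes that had at least 2 other peaks; dashed lines mark 0.4 in both directions. The 11 other peaks of SNF4Agamma all lie below 0, whereas both other peaks of lncRNA:CR43334 lie above 0.4.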

How the data were processed

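The submitters made the libraries by Omni-ATAC, per the labels' protocols. Their processing notes name Bowtie2, MACS2 and DiffBind, the read tools Trim Galore, cutadapt and FastQC, Picard, bedtools and SAMtools, and the dm6 build. Versions, the peak set, handling of duplicates and multiply mapped reads, and scaling are not given in the sources used here; scaling can shift all differences by one amount. The deposited table holds log2 mean reads over all, 25 °C and 11 °C libraries, a fitted log2 fold and a p-value with its FDR, per the file headers. No model was refitted and no test was made here.

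Reads printed are 2 to the power of the deposited log2 mean. Gene positions came from RefSeq Release 6 plus ISO1 MT, on which dm6 is based (17807 genes). A peak is named by the nearest protein-coding gene end, otherwise by the nearest gene. Further genes that share a peak are not all named in the text. Of the list entries 1544 matched a symbol, 44 a synonym and 11 no gene. Members and lists were chosen with earlier results of these data known. Named were the 20 widest differences, the 5 strongest members, up to 4 members per list, the 3 on each side of the cutoff and close pairs; the other genes named were chosen after their values were seen. One gene is not reported here. The planned motif search was not run, as sequence was not used here. The search for gene ends was tested on simulated positions. Python 3.11.15, pandas 2.3.3 and numpy 2.4.6 were used.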

Additional observations from a re-analysis of the deposited data

How the results depend on the processing

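Membership depends on the cutoff on the difference. With 0.3 there were 456 members with a median log2 difference of 0.41, and with 0.5 there were 155, of which 146 were called, with a median of 0.71. With the authors' fitted fold in place of the plain difference there were 151 members, all among the 245 and all called, with a median of 0.71. The median was 0.56 with gene ends within 250 bp, 0.57 within 1000 bp and 0.56 with protein-coding genes only, and the numbers of members were 195, 304 and 224. A log2 mean of at least 6 gave 226 members, and keeping peaks near tRNA genes, a choice made after the data were seen, gave 246. At an FDR under 0.01, 189 of the 245 were called in the authors' deposited table, and the share of all peaks at that threshold was not counted. At an FDR under 0.05, 10.0% of all peaks were called higher at 11 °C. The cutoff used the same contrast, so none of these counts of called members adds anything to it. No paired analysis was possible because only means by temperature are given, and for the same reason no replicate was left out in turn. The depth of each library is unknown, so the error of a single peak's mean cannot be given.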
